A study of Mus musculus with 6 samples.

Results

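The 10 genes described encode transcription factors of the immediate-early class: the AP-1 genes Fos, Fosb, Fosl1, Fosl2, Jun, Junb and Jund, the stress factor Atf3, the zinc finger factor Egr1 and Myc. They were found as every probe whose gene name in the scanner output is one of these 10 symbols, which gave 11 probes of 55681 on the array. All 10 genes were kept among the 17533 genes analysed, of 23837 named ones. Fosl2 had 2 probes and the other 9 genes 1 probe each.

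RNA came from mouse embryonic fibroblasts (MEFs, the connective tissue cells of the embryo in culture) of strain ICR, kept in Dulbecco's modified Eagle's medium with 10% FBS, a serum supplement. There were 3 genotypes, wild type, Clk/Clk (mutant in Clock, an activator of the circadian clock) and Per2m/m (mutant in Per2, a repressor of that clock), and cells of each had received a mock or a vector for H-Ras, a growth-signalling GTPase, and SV40T, an oncoprotein of that virus that inactivates p53 and RB. Each of these 6 groups was 1 array, so no difference between 2 arrays has a replicate check. The transfected Per2m/m sample carries the same transfection label as the others, but its source name does not mention SV40. The time from the last change of medium to harvest is not stated in the labels.

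AP-1 is a family of dimers: FOS proteins (Fos, Fosb, Fosl1, Fosl2) pair with JUN proteins (Jun, Junb, Jund), while JUN proteins can also pair with each other or with ATF3, and the pairing sets which DNA sites are bound. In fibroblasts, serum growth factors and the RAS-ERK pathway switch on Fos, Egr1, Junb and later Myc without new protein synthesis, and their transcripts are short-lived. For Fos, Egr1 and Junb this runs through serum response factor, ETS partners and CREB. Fosl1 and Fosl2 accumulate later and for longer, Jund is present in resting cells, and MYC binds E-boxes together with MAX to drive ribosome production and growth.

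Promoters of 7 of the 10 genes were found in the RefSeq table (GRCm38.p6), Atf3, Fos, Fosb, Fosl2, Jun, Junb and Jund, and the 250 bases before each start were searched. The sequences of Fos, Junb, Fosb and Atf3 are shown because these 4 genes were all at least 2-fold lower in transfected than in mock Per2m/m cells, as described below. The capitals mark TGACG, the core of the cAMP response element that CREB and ATF proteins bind, on either strand. Fos lies at chr12:85473640-85473889 (plus strand), Junb at chr8:84978749-84978998 (minus), Fosb at chr7:19310046-19310295 (minus) and Atf3 at chr1:191183334-191183583 (minus).
Fos: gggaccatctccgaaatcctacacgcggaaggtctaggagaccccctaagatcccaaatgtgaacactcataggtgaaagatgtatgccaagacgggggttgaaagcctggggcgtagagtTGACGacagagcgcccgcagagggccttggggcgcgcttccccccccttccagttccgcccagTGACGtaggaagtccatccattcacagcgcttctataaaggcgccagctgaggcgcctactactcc
Junb: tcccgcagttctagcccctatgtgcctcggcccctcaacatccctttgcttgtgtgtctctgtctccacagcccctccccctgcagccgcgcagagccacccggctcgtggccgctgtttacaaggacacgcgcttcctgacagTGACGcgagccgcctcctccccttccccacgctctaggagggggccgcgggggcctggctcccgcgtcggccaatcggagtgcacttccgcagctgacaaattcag
Fosb: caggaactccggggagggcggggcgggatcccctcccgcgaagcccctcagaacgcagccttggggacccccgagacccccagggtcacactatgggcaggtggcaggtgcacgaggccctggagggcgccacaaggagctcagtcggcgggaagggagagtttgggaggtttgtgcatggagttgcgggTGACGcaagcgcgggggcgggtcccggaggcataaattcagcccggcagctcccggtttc
Atf3: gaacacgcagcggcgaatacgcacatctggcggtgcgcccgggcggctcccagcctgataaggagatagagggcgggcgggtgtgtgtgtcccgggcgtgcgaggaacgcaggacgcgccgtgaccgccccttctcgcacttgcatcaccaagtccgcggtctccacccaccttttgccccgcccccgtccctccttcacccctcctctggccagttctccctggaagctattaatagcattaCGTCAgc

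The choice of motif and of these 4 genes was made after their values were seen. TGACG occurred in these 4 promoters and in none of the other 3 (Jun, Jund and Fosl2), against 17.8% of all 32851 promoters of the same length. Counted from the start site, its first base lay at −129 and −66 in Fos, at −106 in Junb, at −60 in Fosb and, on the other strand, at −7 in Atf3. The longer TGACGTCA, which contains TGACG, was in 0 of the 7 and in 1.55% of all promoters. The AP-1 element TGANTCA (6.75% of all), the E-box CACGTG bound by CLOCK-BMAL1 and by MYC-MAX (6.02%), the ETS element CCGGAA (12.0%) and the CArG box of serum response factor (1.47%) were also in 0 of the 7. The GC box GGGCGG was in 5 of 7 (32.7% of all), the EGR element GCGNGGGCG, which can overlap the GC box, in Fosb and Fosl2 (4.7%) and TATAAA in Fos (12.4%). These 9 motifs were searched on both strands. Near matches were not counted: the Jun window holds TGACATCA, close to TGACGTCA but matched by none of the 9. Which promoters count as holding a site therefore depends on the letters chosen. A match is a description of these letters, not of a bound site, and sites further away, such as the distal serum response element of Fos, lie outside this window.

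Levels below are log2 of the signal over the array's 75th percentile, so a step of 1 is 2-fold, and a level is compared between arrays for 1 probe and never between genes. The response is the level in transfected minus that in mock cells of a genotype. Among probes with all repeated spots well above background, the median SD of spots on 1 array was 0.05 to 0.06. At that SD, spot noise alone puts 0.08 on a response. Dim spots can vary more: the SD of the Fos spots was 0.17 on the transfected Clk/Clk array and 0.59 on the transfected Per2m/m array. On the other arrays it was 0.05 to 0.10. Values given in threes follow the order wild type, Clk/Clk and Per2m/m.

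In wild type cells, 4 of the 10 factors were at least 2-fold higher after transfection (7.41% of all genes) and 0 were at least 2-fold lower (12.0% of all genes). Under median scaling the same numbers of factors were counted, while the shares of all genes turned to 14.1% higher and 8.68% lower. In Clk/Clk cells 1 was at least 2-fold higher (3.74%) and 2 were lower (4.2%), so 3 in either direction against 7.94% of all genes. Per2m/m cells had 1 higher (18.7%) and 5 lower (20.6%), so 6 in either direction against 39.2% of all genes, and in wild type the 4 stand against 19.4%. The median response of the 10 was 0.50, −0.25 and −1.02, beside −0.01, 0.02 and 0.12 over all genes. The genes higher in wild type cells were Fosl1, Atf3, Myc and Egr1. Those lower in Per2m/m cells were Fos, Egr1, Atf3, Junb and Fosb, and Myc was the higher one.

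**Figure D1:**
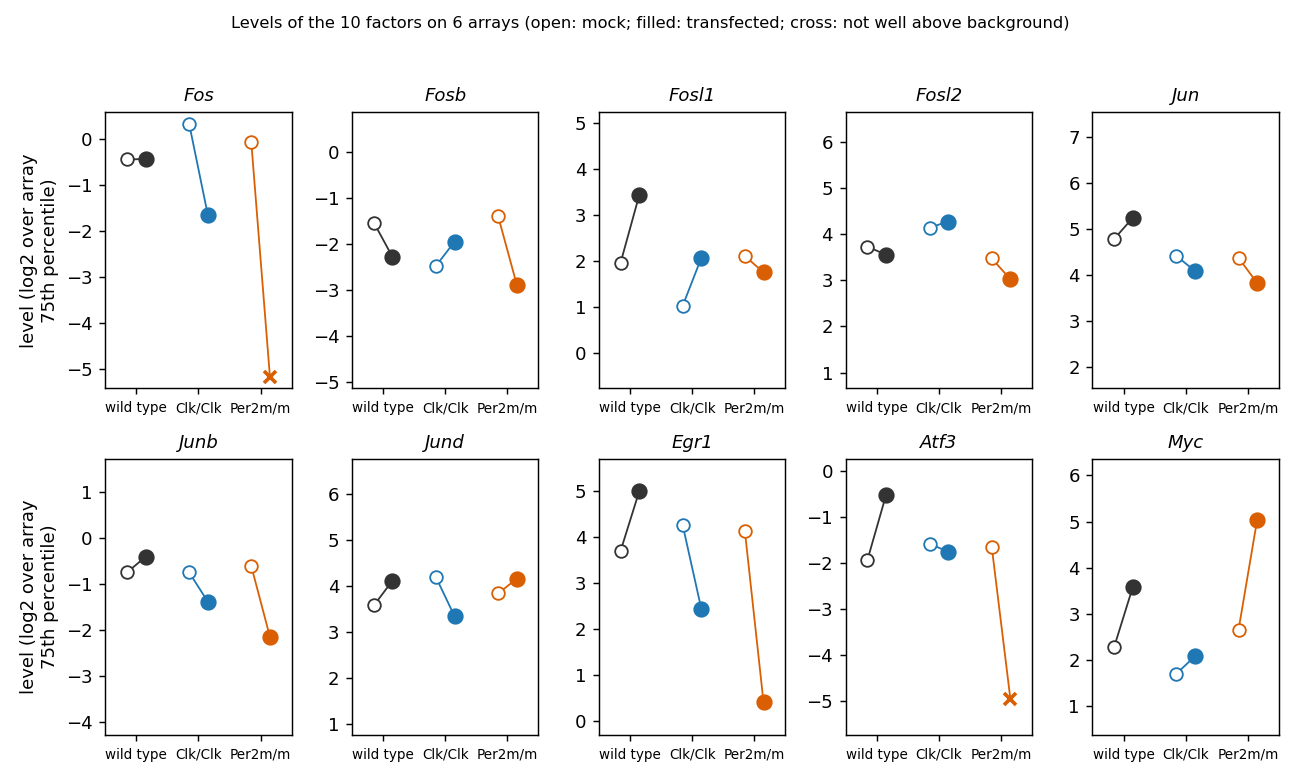
Level of each factor (log2 of signal over the array's 75th percentile, y axis spanning the same number of units in every panel) in mock (open) and transfected (filled) cells of the 3 genotypes (x axis), 1 array per point; a cross marks a probe not well above background. Fos, Egr1 and Atf3 were lowest on the transfected Per2m/m array, at −5.18, 0.41 and −4.95, and Myc was highest there, at 5.04.

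Fos, which encodes the prototype partner of JUN proteins, has a probe spotted 10 times on each array, placed on chromosome 12, 86817900 to 86817959 (mm9, the build of all probe positions). Mock levels were −0.46, 0.32 and −0.08, and transfected levels −0.44, −1.66 and −5.18. The 3 mock arrays and the transfected wild type array lay close together, while both transfected mutant arrays lay below all of them.

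The 10 spots give Fos an error within an array. The responses were 0.01 ± 0.04, −1.98 ± 0.06 and −5.09 ± 0.19 (± the standard error over spots, with 8 spots left on the mock Per2m/m array after outliers were removed). On the transfected Per2m/m array 1 of 10 spots was well above background, so the last value is given as a bound for the main scaling: Fos was lower by at least 22.7-fold. The bound does not carry over to normexp background correction, where the Fos response was smaller, at −2.52 in Per2m/m cells. The wild type difference was within the spread of the spots. In Clk/Clk cells 1.03% of genes had a response lower than that of Fos.

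**Figure D2:**
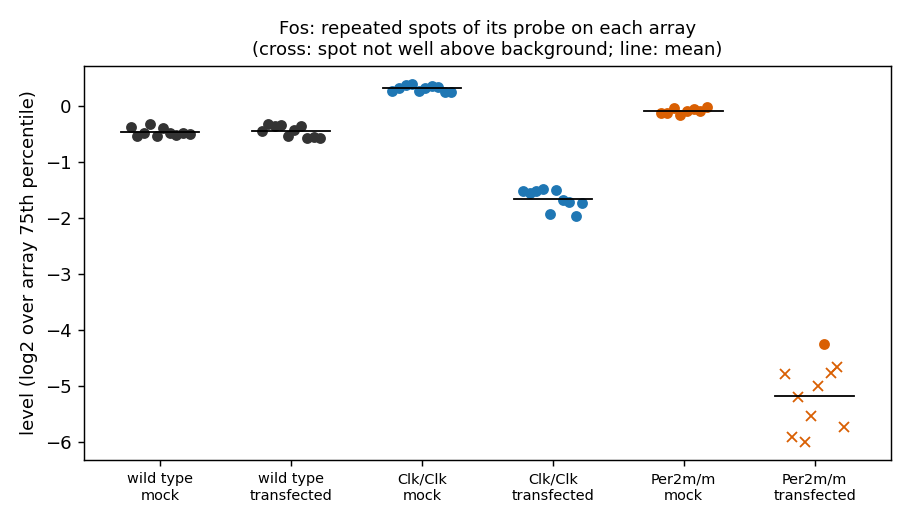
Level (log2 over the array's 75th percentile, y axis) of each repeated spot of the Fos probe on the 6 arrays (x axis), with the mean as a line; crosses are spots not well above background. Spots ranged from −1.95 to −1.48 on the transfected Clk/Clk array and from −5.99 to −4.25 on the transfected Per2m/m array, with no overlap with the other arrays.

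Fosb, a FOS protein with a short form that persists in cells, was read at chromosome 7, 19888168 to 19888227. Mock levels were −1.53, −2.47 and −1.39, and transfected levels −2.28, −1.95 and −2.88. Mock and transfected arrays overlapped. The responses were −0.74, 0.53 and −1.49 (2.80-fold lower), and the last was −0.77 with normexp, below 2-fold.

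Fosl1, which encodes FRA-1, a FOS protein that lacks a strong activation domain and is known to build up in RAS-transformed fibroblasts, was read at chromosome 19, 5455496 to 5455555. Mock levels were 1.96, 1.03 and 2.10, and transfected levels 3.43, 2.07 and 1.75. The transfected array was the higher of the pair in wild type and Clk/Clk cells and the lower in Per2m/m cells. The responses were 1.47 (2.77-fold), 1.04 (2.06-fold) and −0.35. In wild type cells 96.7% of genes had a lower response than Fosl1, in Clk/Clk cells 95.4% and in Per2m/m cells 34.4%. The Per2m/m response minus that of wild type was −1.82, and minus that of Clk/Clk −1.39; neither was tested.

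Fosl2, which encodes FRA-2, was read by a bright probe at chromosome 5, 32460076 to 32460135 (transcript position 5726). Mock levels were 3.73, 4.15 and 3.48, and transfected levels 3.56, 4.28 and 3.03, with responses of −0.17 (0.14 with median scaling), 0.13 and −0.45. A dimmer probe at 32455088 to 32455147 (position 738) gave mock levels of −3.69, −2.84 and −3.74, and transfected levels of −3.40, −2.73 and −1.56. Its responses were 0.29, 0.11 and 2.18, so in Per2m/m cells the probes went opposite ways, the dimmer one being 4.53-fold higher.

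The JUN genes ranged over 1.42 (Jun), 1.74 (Junb) and 0.85 (Jund) on the 6 arrays, and Fos over at least 4.91 with its transfected Per2m/m level held at the bound. With normexp the ranges were 1.46, 1.29 and 0.82, and 2.93 for Fos. Jun, the AP-1 subunit that JNK activates, was read at chromosome 4, 94716928 to 94716987. Mock levels were 4.78, 4.41 and 4.37, and transfected levels 5.24, 4.08 and 3.82. All 3 responses (0.46, −0.33 and −0.54) were under 2-fold.

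Junb, a weaker activator that can restrain growth, was read at chromosome 8, 87501881 to 87501940. Mock levels were −0.75, −0.75 and −0.62, and transfected levels −0.41, −1.39 and −2.15. The 3 mock arrays, which are 1 per genotype and not replicates, had an SD of 0.08 (n = 3). The responses were 0.34, −0.63 and −1.54, the last 2.90-fold lower.

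Jund, the JUN protein of resting cells, was read at chromosome 8, 73224436 to 73224495. Mock levels were 3.58, 4.20 and 3.84, and transfected levels 4.12, 3.35 and 4.16. Its responses of 0.54, −0.85 and 0.32 were all under 2-fold.

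Atf3, a repressor or activator induced by stress and p53, was read at chromosome 1, 192994547 to 192994606. Mock levels were −1.94, −1.58 and −1.65, and transfected levels −0.52, −1.76 and −4.95, the last not well above background. The transfected wild type array was the highest of the 6 and the transfected Per2m/m array the lowest. Wild type cells had a response of 1.41 (2.66-fold higher), Clk/Clk cells one of −0.18. In Per2m/m cells Atf3 was lower by at least 7.70-fold under the main scaling (measured response −3.30). With normexp the response was smaller, at −1.35, so this bound does not hold there.

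Egr1, a zinc finger factor that ERK signalling induces through serum response factor, was read at chromosome 18, 35024395 to 35024454. Mock levels were 3.71, 4.26 and 4.13, and transfected levels 5.00, 2.44 and 0.41. The 3 mock arrays lay within 0.55 of each other, and the transfected arrays spread over 4.59, with wild type above and both mutants below all mock arrays. The responses were 1.29 (2.45-fold higher), −1.82 (3.53-fold lower) and −3.71 (13.1-fold lower). Egr1 was well above background on all 6 arrays, so these are measured on both sides. Genes with a lower response than Egr1 made up 1.34% of all in Clk/Clk cells and 6.33% of all in Per2m/m cells.

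Myc, the growth regulator that pairs with MAX, was read at chromosome 15, 61821417 to 61821476, by 2 spots per array. Mock levels were 2.28, 1.69 and 2.65, and transfected levels 3.58, 2.07 and 5.04. The transfected array was the higher of the pair in all 3 genotypes, although the transfected Clk/Clk level stood below the mock levels of the other genotypes. The responses were 1.30 ± 0.06, 0.38 ± 0.04 and 2.39 ± 0.04 (standard error over 2 spots per array), or 2.46-fold, 1.30-fold and 5.24-fold. Of the 10 genes, 1 (Myc) had a response above 0 in all 3 genotypes, against 17.6% of all genes, and 0 had one below 0 in all 3, against 14.4%. Myc was also the 1 member at least 2-fold apart in the same direction in wild type and Per2m/m cells (9.99% of all genes).

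**Figure D3:**
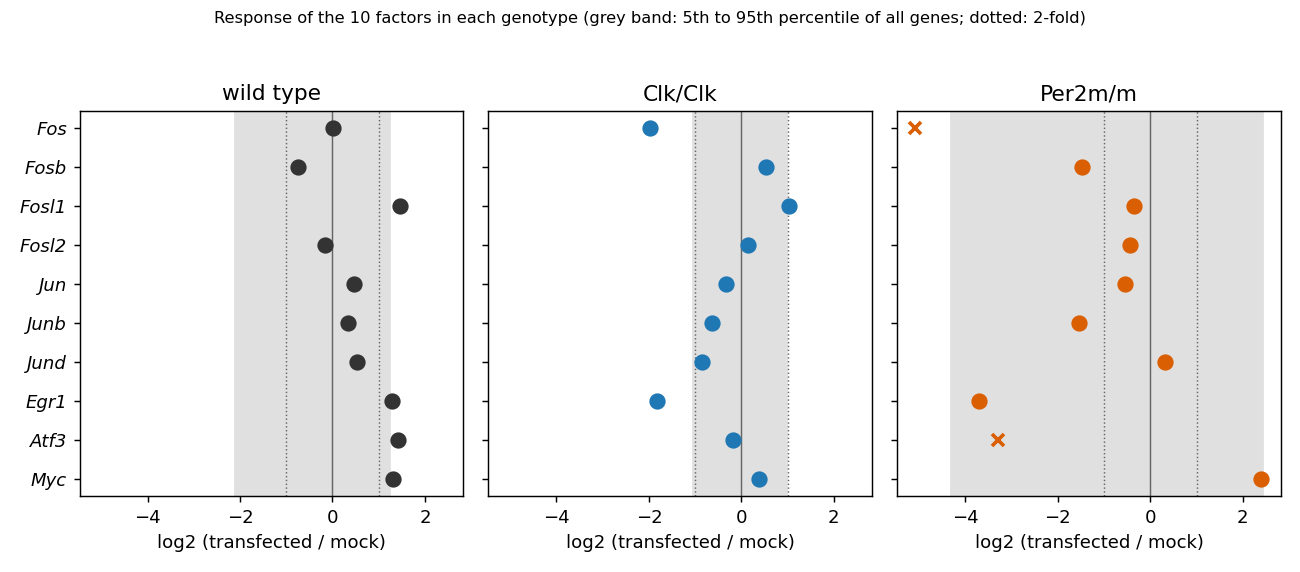
Response of each factor (log2 of transfected over mock signal, x axis) in the 3 genotypes, 1 pair of arrays per point; the grey band spans the 5th to the 95th percentile of all 17533 genes, dotted lines mark 2-fold, and crosses mark a transfected array not well above background. Fosl1, Atf3, Egr1 and Myc lie past the upper edge of the band in wild type cells, Fosl1 past the upper and Fos and Egr1 past the lower edge in Clk/Clk cells, and Fos past the lower edge in Per2m/m cells.

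All 3 transfected arrays were then set against all 3 mock arrays, with genotype as a term. The largest coefficients of the 10 were −2.35 ± 1.10 for Fos, −1.41 ± 1.08 for Egr1 and 1.36 ± 0.48 for Myc (limma, transfected minus mock in an additive model of genotype and transfection, ± standard error). Their adjusted p-values were each 0.695. None of the 10 passed, and 0 of 17533 genes did (0.0%), with 815 at an unadjusted p under 0.05. Groups of transfected and mock arrays that did not overlap were seen in 0 of 10 factors, against 6.56% of all genes with transfected above mock and 4.35% with transfected below. With 3 pairs an exact paired permutation test cannot go below p = 0.25.

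The array of transfected Per2m/m cells was unlike the others: its median correlation with them across genes was 0.856, against 0.931 to 0.945 for each other array, and it had the lowest share of spots well above background, at 49.3% against 53.5% to 57.3%. Without it, in a fit chosen after seeing the data, the coefficient was −0.98 ± 0.62 for Fos, −0.26 ± 0.90 for Egr1, 0.62 ± 0.52 for Atf3 (against −0.69 ± 1.03 with it), 0.84 ± 0.38 for Myc and 1.25 ± 0.31 for Fosl1 (against 0.72 ± 0.47). The adjusted p-values of these 5 were 0.935 to 0.991.

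Mock cells of the 3 genotypes were compared next. Against mock wild type, 0 of 10 factors were at least 2-fold apart in mock Per2m/m cells (8.98% of all genes, 4.34% higher and 4.64% lower), with differences from −0.41 (Jun) to 0.42 (Egr1). In mock Clk/Clk cells 0 of 10 were (21.2% of all genes, 10.8% higher and 10.5% lower), from −0.94 (Fosb) and −0.93 (Fosl1) to 0.77 (Fos). With each array scaled to its median, Fosb and Fosl1 were both −1.29 in the latter comparison, and the split of all genes became 1326 higher and 3302 lower, against 1888 and 1837. The genotype terms of the additive model rest on all 6 arrays, mock and transfected, so they do not test mock cells alone. That model called 0 genes for Per2m/m against wild type (0.0%, 397 at an unadjusted p under 0.05) and 0 for Clk/Clk against wild type (0.0%, 1688 unadjusted). The lowest adjusted p of the 10 factors was 0.934 in the former and 0.588 (Fosl1, −1.15 ± 0.57) in the latter (limma).

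Among transfected cells, more of the factors were 2-fold apart. Transfected Per2m/m cells had 6 of 10 factors at least 2-fold below transfected wild type cells (16.2% of all genes) and 1 above (14.7%), 7 in all against 30.8%. Fos was lower by at least 17.7-fold, Atf3 by at least 16.8-fold, Egr1 by 24.0-fold, Junb by 3.34-fold, Fosl1 by 3.20-fold and Jun by 2.67-fold, and Myc was 2.74-fold higher. These bounds hold for the main scaling: with normexp the log2 difference was −2.28 for Fos and −2.23 for Atf3, against measured values of −4.73 and −4.43, and −4.33 for Egr1. Transfected Clk/Clk cells also had 6 of 10 at least 2-fold below transfected wild type cells (10.9%) and 0 above (14.3%), against 25.1% either way, namely Egr1 (5.92-fold), Myc (2.85-fold), Fosl1 (2.57-fold), Atf3 (2.35-fold), Fos (2.32-fold) and Jun (2.23-fold). With normexp Jun was at −0.80, under 2-fold, which leaves 5 of the 6. Both comparisons share the transfected wild type array. In the Clk/Clk comparison the all-gene median shifted by −0.67 with median scaling, which gave 1511 higher and 6593 lower against 2499 and 1910, so its sizes depend on the scaling.

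Beyond the 10 factors, 7 lists of neighbouring genes were counted by their measured responses. Where the dimmer array is not well above background the bound can be under 2-fold, so counts that differ by the bound are given beside the measured ones. By the bound, 6.84%, 2.85% and 17.8% of all genes were at least 2-fold higher and 10.5%, 3.27% and 17.7% lower. Of 49 other immediate-early genes, those measured at least 2-fold higher numbered 12 (11 by the bound), 9 and 8 by genotype (7.41%, 3.74% and 18.7% of all genes), and those lower 6, 4 and 25 (12.0%, 4.2% and 20.6%). Their median response was −0.04 (0.27 with median scaling), 0.37 and −1.13. In wild type cells the genes named by measured response were Arl4d (1.78), the EGR factor Egr3 (by its bound at least 1.65-fold higher), the nuclear receptor Nr4a2 (−1.29) and Egr4 (at least 2.96-fold lower), and the order among genes with a bound is not known. In Clk/Clk cells they were Id1, an inhibitor of bHLH factors (1.70), Klf10 (1.61), the mRNA-decay factor Zfp36l1 (−1.57) and the antiproliferative Btg2 (−1.48). For Per2m/m they were the zinc finger factor Klf4 (3.40), Btg1 (2.80), Ccn2, a secreted matrix-associated protein (−5.94), and the MAP kinase phosphatase Dusp2 (at least 18.3-fold lower).

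Of 27 upstream regulators (serum response factor, its MRTF and ETS partners, CREB proteins and MAP kinases), the numbers at least 2-fold higher were 1, 0 and 6 by genotype, and those lower 1, 1 and 2. Of all genes, 7.41%, 3.74% and 18.7% were higher and 12.0%, 4.2% and 20.6% lower. The median response of the 27 was 0.09 (−0.01 to 0.39 over scalings), 0.17 and 0.20. Atf1, a CREB relative, had a wild type response of 1.36 and a Per2m/m response of 1.70, and Crem, a cAMP-responsive factor, of −1.03 and −2.51. Of the kinase genes, Rps6ka5 had a Per2m/m response of 1.66 (3.17-fold higher) and Rps6ka1 was lower there by at least 36.0-fold, and the JNK gene Mapk8 was −1.80 in Clk/Clk cells.

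Of 22 other dimer partners (ATF, BATF, small MAF and C/EBP genes), the numbers measured at least 2-fold higher were 2, 1 (0 by the bound) and 10 by genotype, and those lower 2, 1 and 6 (5 by the bound), with medians of −0.09 (0.22 with median scaling), −0.02 (−0.03 to 0.05) and 0.80. Of all genes, 7.41%, 3.74% and 18.7% were measured higher and 12.0%, 4.2% and 20.6% lower. In wild type cells Batf3, a partner of JUN proteins, had a response of 2.63, Atf1 of 1.36, Maf of −1.38 and Mafk of −1.01. In Clk/Clk cells Cebpa, a differentiation factor, was the 1 gene counted as higher, with a bound of at least 1.69-fold, and Cebpd was −1.25. For Per2m/m, Cebpb (2.75) and the stress factor Ddit3 (2.21) were higher, and Cebpa (at least 31.3-fold) and Maf (at least 11.0-fold) lower.

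Of 30 MYC target genes, the numbers at least 2-fold higher were 12, 0 and 11 by genotype, and those lower 1, 0 and 1, with medians of 0.87, 0.24 and 0.84. For this list and the next, the shares of all genes were 7.41%, 3.74% and 18.7% higher and 12.0%, 4.2% and 20.6% lower. The Myc responses themselves were 1.30, 0.38 and 2.39. Shmt1, a folate enzyme, had responses of 1.84 (wild type) and 2.00 (Per2m/m), Dkc1, a pseudouridine synthase of ribosomal RNA, of 1.64 in wild type, and Polr1b, a subunit of RNA polymerase I, of 1.74 in Per2m/m cells. Ccnd2, a D cyclin, was the 1 lower gene, at −1.01 and −1.18. Of 19 genes of the MAX network and MYC turnover, the numbers at least 2-fold higher were 3, 0 and 1 by genotype, and those lower 2, 1 and 2, with medians of 0.13, 0.00 (−0.01 to 0.00) and 0.01 (−0.07 to 0.23). Mxd3 (1.83) and Ruvbl1 (1.35) were furthest up in wild type, and Mycl (−1.23) and Mxd1, a MYC antagonist (−1.16), furthest down. Mxd4, another antagonist, had a Clk/Clk response of −1.27. For Per2m/m, the MAX partner Mnt was 1.18, Mycl at least 7.62-fold lower and Skp2, a ubiquitin ligase subunit, −1.26.

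Of 24 AP-1 target genes, the numbers at least 2-fold higher were 2, 5 and 4 by genotype, and those lower 8, 3 and 15 (14 by the bound), with medians of −0.52, 0.48 and −1.70. For this list and the next, the shares of all genes were 7.41%, 3.74% and 18.7% measured higher and 12.0%, 4.2% and 20.6% lower. In wild type cells Spp1, which encodes osteopontin, was 1.25, Hmga1 1.07, the cytokine Il6 −5.28 and the collagenase Mmp13 −5.13. In Clk/Clk cells Mmp13 was 3.01, Tgfb1 1.32, Spp1 −1.52 and the metallothionein Mt2 −1.45. For Per2m/m, Mt2 was 3.51, Mt1 3.24, the protease Plau at least 37.9-fold lower and Il6 −5.44. Of 20 EGR corepressors and EGR1 targets, the numbers measured at least 2-fold higher were 1 (0 by the bound), 3 and 2 by genotype, and those lower 4, 0 and 11 (10 by the bound), with medians of −0.45, 0.19 and −1.55. In wild type cells the matrix protein gene Thbs1 was −2.27 and the growth factor gene Pdgfb −1.74, beside Egr3 given above. In Clk/Clk cells Icam1 was at least 3.46-fold higher and Fgf2 1.52. For Per2m/m, Vegfa was 2.10, the EGR corepressor Nab1 1.33, Thbs1 −10.39 and Plau as above. Some genes stand in several lists.

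**Figure D4:**
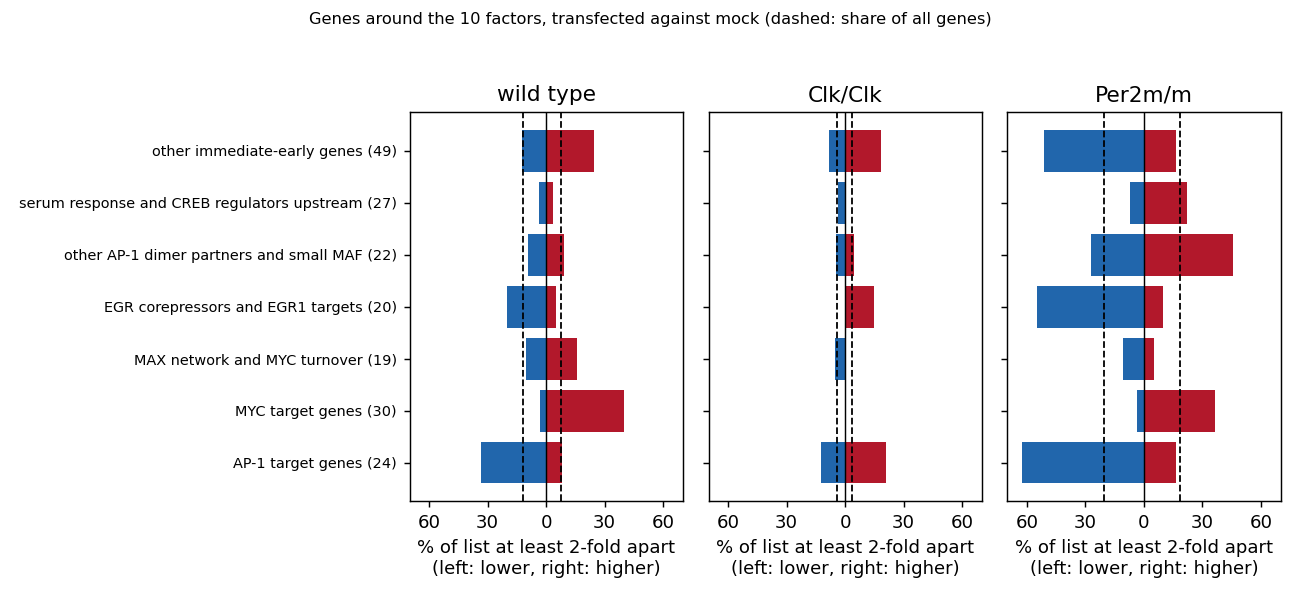
Share of each list (rows, with the number of genes kept) that was measured at least 2-fold higher (right) or lower (left) in transfected than in mock cells of each genotype, 1 pair of arrays per panel; dashed lines give the share of all genes, 18.7% higher and 20.6% lower in Per2m/m cells. MYC targets lie to the right in wild type and Per2m/m cells, and AP-1 targets to the left in both.

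Levels of cell type markers also differed between the arrays. Fibroblast markers were well above background in 16 to 18 of 18 on every array, with Lum and Fap not so on the transfected wild type and Per2m/m arrays. Their responses were at least 2-fold higher in 2, 1 and 0 of 18 by genotype and lower in 7, 1 and 11, with medians of −0.56, −0.14 and −1.39. Of all genes, 7.41%, 3.74% and 18.7% were higher and 12.0%, 4.2% and 20.6% lower. Contractile markers had a summed level (in units of the array's 75th percentile) of 1478 to 2271 on 5 arrays and 25.7 on the transfected Per2m/m array. Contractile markers were at least 2-fold lower in 3, 0 and 8 of 9 by genotype, and macrophage markers in 11, 1 and 13 of 16 (12.0%, 4.2% and 20.6% of all genes). Macrophage markers were well above background in 15, 10 and 16 of 16 on the mock arrays and in 9 of 16 on each transfected array. Their summed level was 48.0, 62.2 and 58.1 on the mock and 24.0, 57.4 and 18.5 on the transfected arrays, with Tyrobp, C1qa and C1qc among those not well above background on all arrays but mock wild type and mock Per2m/m. Epithelial markers were well above background in 8 to 10 of 13 kept genes on every array and endothelial markers in 2 to 6 of 7. Genes were kept only if well above background on at least 1 array. The summed level was 1.01 to 6.92 for epithelial and 6.29 to 10.8 for endothelial markers, beside 1494 to 2337 for fibroblast markers. Of 4 sex-linked genes measured (Xist, Ddx3y, Eif2s3y and Uty), 0 were well above background on the transfected Per2m/m array, while 3 or 4 were so on each other array. Both wild type arrays had all 4, both Clk/Clk arrays lacked Xist, and the mock Per2m/m array lacked Uty. The pattern thus differed between genotypes, and between the mock and transfected Per2m/m arrays. The part of any of these in the values of the 10 factors was not tested, and in such bulk samples fewer cells of a type and less RNA per cell cannot be told apart.

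Over the 6 arrays, the factors with the widest measured range of level were Fos, Egr1 and Atf3, at least 4.91, 4.59 and at least 4.07 with levels held at their bounds. With normexp the ranges were 2.93 for Fos, 4.33 for Egr1, 2.23 for Atf3 and 2.91 for Myc, so the order and the choice of these 3 depend on the background correction. Of 12771 other genes well above background on all 6 arrays, those whose level followed Fos most closely were Pcca (Pearson r of 0.994), Ddt (0.991) and Riok3 (0.991). For Egr1 they were Nfatc3 (0.987), Artn (0.983) and Invs (0.980), and for Atf3 Vwa8 (0.996), Phf2 (0.994) and Ppm1m (0.991). These are descriptions over 6 arrays that share the low point on the transfected Per2m/m array, where Fos and Atf3 were not well above background. Over the other 5 arrays r was 0.954 to 0.980 for the Fos genes, 0.921 to 0.949 for the Egr1 genes and 0.927 to 0.975 for the Atf3 genes. The genes had been picked by r over all 6 arrays, so these values are no separate check. A high r also takes no account of the size of a change.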

How the data were processed

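Total RNA of 6 samples was hybridised to 1-colour (Cy3) Agilent arrays. The deposited scanner output gives a linear intensity per spot, extracted with Feature Extraction 10.7.1.1 with background subtraction and detrending, per the file headers; the submitters' processing notes name 9.5.1.1. The authors' deposited series table holds linear intensity too, with the same sorted values in every column (median 23.8), and no source here names its software. Outlier spots were removed (85 to 125 of 59305 per array; 0 were saturated), spots of a probe averaged, and each signal divided by its array's 75th percentile and put on the log2 scale. Genes were named through accession, symbol or synonym in a GRCm38.p6 table, and represented by the probe of highest mean level among those well above background on at least 1 array. A gene not well above background on the dimmer array has a bound, set by the higher of its own level and the lowest level well above background there. Every such bound is for the main scaling only, and normexp gave smaller differences than the bounds of Fos and Atf3.

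Samples were grouped by title. The additive model used limma 3.58.1 and R 4.3.3 (eBayes, two-sided, Benjamini-Hochberg over all genes, 2 residual degrees of freedom). It was run on simulated data with the same noise for every gene and no genotype effect. That check does not cover how well the model suits these arrays. Within a genotype, genes 2-fold or more apart were counted, without a test, where the brighter array was above background. The alternatives were median scaling, normexp with quantile normalization, the deposited table, other filters, fold limits, probe rules and fits. Members and lists were chosen with earlier results of these data known. Named are the members, the 3 genes most like each of the 3 widest-ranging members, and the 2 list genes furthest each way per genotype. The number of arrays limits the precision. Python 3.11.15, pandas 2.3.3, numpy 2.4.6 and matplotlib 3.10.9 were used.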

Additional observations from a re-analysis of the deposited data

Results flagged for a closer look

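In 2 of the 10 factors the response was at least 2-fold in wild type cells and at least 2-fold the opposite way in a mutant. This was not tested, and the share of all genes that did the same was not counted. Whether 2 of 10 is more than among all genes is therefore not known. Egr1 was higher after transfection by 1.29 in wild type cells and lower in both mutants, so that its response differed from wild type by −5.01 in Per2m/m and by −3.11 in Clk/Clk cells. Atf3 was higher by 1.41 in wild type cells, and its Per2m/m response differed from that by −4.72, with the transfected Per2m/m array not well above background, so that the size is not exact. With normexp the difference was −2.45 for Atf3 and −4.72 for Egr1. Both wild type responses rest on 1 pair of arrays, and both Per2m/m responses on the array that stood apart from the rest.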

How the results depend on the processing

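Of 26 member differences of at least 2-fold, 0 changed sign under median scaling, normexp or the deposited table, and 2 went below 2-fold in one of these (Fosb in Per2m/m cells and Jun in transfected Clk/Clk against wild type cells). The count of factors at least 2-fold apart was the same or within 1.5 times its value elsewhere, except as follows. At 3-fold it became 0 for the wild type response (1649 of all 17533 genes) and 1 for transfected Clk/Clk against wild type cells (2269). At 1.5-fold it became 5 for the Clk/Clk response (3341 genes) and 5 for mock Clk/Clk against mock wild type cells (6855). For the last comparison it became 2 with median scaling (4628 genes) and 1 with the deposited table (3889). The additive fits called 0 genes under every alternative, also with each genotype pair left out, except for Clk/Clk against wild type without the transfection term, where 9 were called. Median scaling shifted the all-gene median response by 0.31 (wild type) and 0.22 (Per2m/m), and made the wild type split 2466 higher and 1521 lower against 1300 and 2109. No paired analysis by replicate number was possible because the labels carry none; genotype was a term of the fit. With normexp the responses in Per2m/m cells were −2.52 for Fos and −1.35 for Atf3, and over all genes those at least 2-fold apart numbered 1606 against 3409 in wild type, 567 against 1392 in Clk/Clk and 4535 against 6880 in Per2m/m cells. Against wild type they numbered 463 against 1574 (mock Per2m/m), 2039 against 3725 (mock Clk/Clk), 3325 against 5407 (transfected Per2m/m) and 2060 against 4409 (transfected Clk/Clk, where median scaling gave 8104); the cause was not tested.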
